A study of Mus musculus with 4 samples.

Results

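The genes described here are 10 members of the bone morphogenetic protein (BMP) and transforming growth factor beta (TGF-beta) pathways in endothelium, picked by gene symbol with earlier results of these data known. They are 5 receptors (Eng, Acvrl1, Bmpr2, Tgfbr1 and Tgfbr2), 2 inhibitory SMADs (Smad6 and Smad7) and 3 target genes of the ID family (Id1, Id2 and Id3). Each of the 10 had a row in the deposited table of 24346 genes. RNA was measured in endothelial cells sorted from the hearts of mice labelled young, on a C57BL/6 background and taken without culture. The 2 libraries labelled ECp53KO, read here as carrying a deletion of p53 in endothelial cells, are named ECp53KO_170 and ECp53KO_172, and the 2 wild-type libraries Ctrl_178 and Ctrl_182. No treatment is given for either genotype. The labels do not give the promoter or Cre line behind the deletion, or the exons deleted. They also do not give the age in weeks, or whether each library came from its own mouse. The p-values thus measure only the spread between these libraries. Within each group the libraries differed in whether Xist passed 1 FPKM, and how much of the spread is technical was not tested. The question was whether transcript levels of this pathway differed between the genotypes.

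In this pathway a ligand brings together type I and type II serine/threonine kinase receptors, and the active type I receptor phosphorylates SMAD proteins that enter the nucleus. In endothelial cells the type I receptor ALK1 (Acvrl1), with the type II receptor BMPR2 and the co-receptor endoglin (Eng), responds to BMP9 and BMP10 in the circulation, while ALK5 (Tgfbr1) and TGFBR2 respond to TGF-beta. The inhibitory SMADs and the ID genes are classic targets: SMAD6 and SMAD7 damp the signal, and ID proteins bind E proteins and keep them from DNA. In humans, inherited loss of ENG or ACVRL1 causes hereditary haemorrhagic telangiectasia and loss of BMPR2 predisposes to pulmonary arterial hypertension.

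All levels are FPKM, fragments scaled by transcript length and by sequencing depth, as deposited. Depth, estimated from the values of low genes, was 11700000 and 9700000 fragments in the ECp53KO libraries and 11100000 and 22200000 in the controls, the deepest being Ctrl_182. The targeted transcript, Trp53, had 4.41 and 2.45 FPKM in the ECp53KO libraries and 52.1 and 28.8 FPKM in the controls. Both ECp53KO libraries lay far below both controls, yet Trp53 itself did not pass the test used below (log2 fold change -3.20 ± 0.36, limma adjusted p = 0.146), so a gene that did not pass is not shown to be unchanged. Trp53 passed in 8 of 18 alternatives, with adjusted p-values from 4.05e-08 to 0.620. The 12 pan-endothelial markers summed to 6584 and 6197 FPKM in the ECp53KO libraries and 6100 and 6181 FPKM in the controls. In any library, markers of other cells summed to at most 467 FPKM (12 cardiomyocyte genes), 457 FPKM (8 erythroid genes), 188 FPKM (12 pericyte and smooth muscle genes), 68.3 FPKM (10 fibroblast genes) and 11.8 FPKM (10 leukocyte genes). Relative to the other libraries, values in ECp53KO_170 fell with transcript length (Spearman's rho of -0.44 over 11048 genes, a description across genes and not across replicates), against rho of 0.13 to 0.29 in the other libraries.

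None of the 10 members passed the test between genotypes. Values were compared as log2(FPKM + 1), a scale that understates the change of low genes, with limma across the 11332 genes that averaged 1 FPKM or more, and all 10 members were among them. With a Benjamini-Hochberg adjusted p of 0.05 as the threshold, 0 members were called in either direction, where 0.115% of all tested genes were. At an unadjusted limma p under 0.05, 1 member (Id2) was higher, where 1.97% of all tested genes were, and 0 were lower, where 2.82% were. Both ECp53KO libraries lay above both controls for Id2 and Acvrl1, which is 2 of 10 members where 19.1% of all tested genes did so, and no member lay below both controls, where 16.8% of all tested genes did. Fold changes were positive for 4 members and negative for 6, with a median of -0.04 over the members and 0.01 over all tested genes. In bulk RNA such as this, fewer cells of a type and less RNA per cell cannot be told apart.

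**Figure D1:**
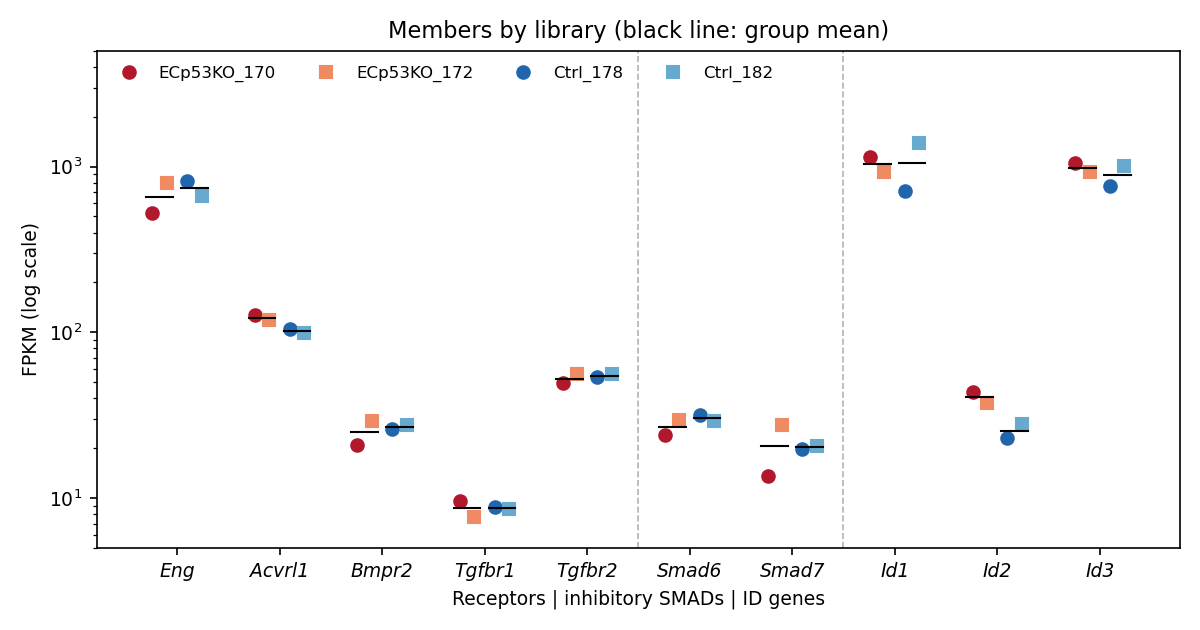
FPKM of the 10 members (log axis) in each of the 4 libraries, with ECp53KO left of Ctrl within each gene and a black line at each group mean of 2 libraries. Id2 and Acvrl1 are the members whose ECp53KO libraries both lie above the controls, and Smad7 spreads from 13.5 to 27.6 FPKM within ECp53KO.

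The members covered a wide range of levels. Id1 (mean 1041 FPKM over the 4 libraries), Id3 (935 FPKM) and Eng (699 FPKM) were the most abundant, above 98.8% or more of tested genes, and each overlapped its neighbour in this order. Acvrl1 followed at 112 FPKM and Tgfbr2 at 53.7 FPKM, and the libraries of neither overlapped those of any other member. Id2 (33.0 FPKM), Smad6 (28.7 FPKM), Bmpr2 (26.0 FPKM) and Smad7 (20.4 FPKM) overlapped in turn, and Tgfbr1, at 8.70 FPKM, lay below the rest in every library. These levels rest on an estimated 430 fragments for Tgfbr1 in ECp53KO_172 up to 50000 for Eng in Ctrl_182.

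Among the receptors of the BMP branch, Acvrl1 was the one without overlap. Acvrl1, which encodes ALK1 (chromosome 15, positions 101128522 to 101145336 of GRCm38), had 126 and 118 FPKM in the ECp53KO libraries, against 105 and 98.5 FPKM in Ctrl_178 and Ctrl_182. The libraries of each group lay close together, with means of 122 ± 5.60 FPKM in ECp53KO and 102 ± 4.78 FPKM in Ctrl (SD, n = 2 each), a ratio of 1.20. The log2 fold change was 0.26 ± 0.16 (SE), with a 95% interval of -0.14 to 0.66 and a limma adjusted p of 0.864, so the difference did not pass. Its exons overlap those of an antisense gene, Gm16031, and reads of the 2 strands cannot be told apart in this unstranded library type.

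Eng, the endoglin gene (chromosome 2, 32646595 to 32682669), had 521 and 795.5 FPKM in the ECp53KO libraries and 821 and 659.9 FPKM in the controls. The groups overlapped, with ECp53KO_170 the lowest of the 4 and Ctrl_178 the highest. The log2 fold change was -0.19 ± 0.31, with an interval of -0.97 to 0.59 (limma adjusted p = 0.914), and it was 0.11 without ECp53KO_170. The end of Eng overlaps an exon of Fpgs on the opposite strand. Eng stood at 4.12 and 6.72 times the level of Acvrl1 on the FPKM scale in the ECp53KO libraries and at 7.80 and 6.70 times in the controls, so that ECp53KO_170 was apart from the other 3 libraries. Bmpr2, the type II receptor (chromosome 1, 59764279 to 59878081), had 21.0 and 29.2 FPKM in the ECp53KO libraries and 25.9 and 27.7 FPKM in the controls. Its ECp53KO libraries lay on either side of both controls, with a log2 fold change of -0.11 ± 0.20 and an interval of -0.63 to 0.41 (limma adjusted p = 0.930).

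The receptors for TGF-beta had the smallest fold changes of the 5 receptors. Tgfbr2, the type II receptor (chromosome 9, 116087695 to 116175363), had 49.5 and 55.7 FPKM in the ECp53KO libraries and 53.4 and 56.1 FPKM in the controls. Tgfbr1, which encodes ALK5 (chromosome 4, 47353222 to 47414926), had 9.58 and 7.72 FPKM in the ECp53KO libraries and 8.86 and 8.62 FPKM in the controls. The groups overlapped for both genes. Their log2 fold changes were -0.06 ± 0.15 (interval -0.45 to 0.33) and -0.02 ± 0.18 (interval -0.47 to 0.43), with limma adjusted p-values of 0.947 and 0.987.

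**Figure D2:**
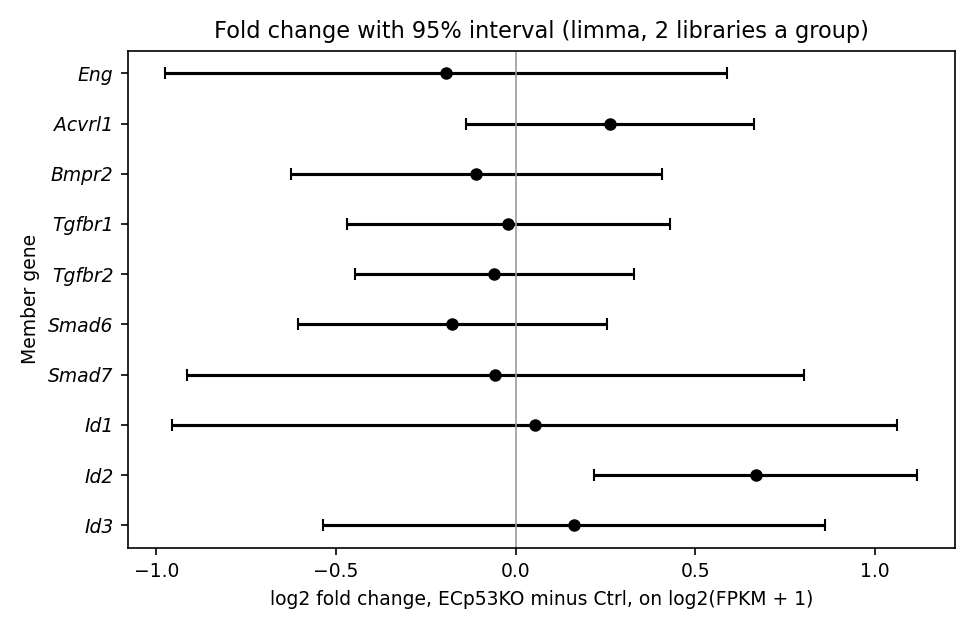
Log2 fold change of each member, ECp53KO minus Ctrl on the log2(FPKM + 1) scale, with its 95% interval from limma (2 libraries a group, intervals not adjusted for the number of genes). The interval of Id2 (0.22 to 1.12) does not reach 0, and those of the other 9 members include it.

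The inhibitory SMADs differed in how far the ECp53KO libraries lay apart. Smad6, whose protein blocks BMP receptor signalling (chromosome 9, 63953076 to 64022085), had 24.1 and 29.7 FPKM in the ECp53KO libraries and 31.5 and 29.3 FPKM in the controls. The groups overlapped narrowly, and the log2 fold change was -0.18 ± 0.17 (interval -0.61 to 0.25, limma adjusted p = 0.873). Smad7, on chromosome 18, whose protein blocks both branches, had 13.5 and 27.6 FPKM in the ECp53KO libraries and 19.8 and 20.6 FPKM in the controls. The lowest and the highest value were thus both from ECp53KO. The mean was 20.5 ± 9.99 FPKM in ECp53KO and 20.2 ± 0.570 FPKM in Ctrl (SD, n = 2 each), and the log2 fold change was -0.06 ± 0.34 (limma adjusted p = 0.980), of the opposite sign to the difference of the means. Without ECp53KO_170 it was 0.43 (limma adjusted p = 0.932), and without ECp53KO_172 it was -0.55 (limma adjusted p = 0.321).

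Id2 had the largest difference of the 10 members. It encodes an ID protein found across many cell types (chromosome 12, 25093799 to 25096092), and had 43.9 and 37.7 FPKM in the ECp53KO libraries, against 22.9 and 27.8 FPKM in Ctrl_178 and Ctrl_182. Both ECp53KO libraries lay above both controls. The mean was 40.8 ± 4.41 FPKM in ECp53KO and 25.3 ± 3.48 FPKM in Ctrl (SD, n = 2 each), a ratio of 1.61. The log2 fold change was 0.67 ± 0.18 (interval 0.22 to 1.12), and it did not pass over all genes (limma adjusted p = 0.864, unadjusted p = 0.0121). The fold change was 0.53 to 0.80 with each library left out in turn and 0.62 with the length trend removed, and the limma adjusted p ran from 0.109 to 1 over the alternatives. The unadjusted limma p was 0.0962 without Ctrl_178.

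Id1 and Id3, early targets of BMP9 in endothelial cells, overlapped between the groups. Id1 (chromosome 2, 152736251 to 152737410) had 1139 and 931 FPKM in the ECp53KO libraries and 713 and 1381 FPKM in the controls. The lowest and the highest value were both from Ctrl, and the ECp53KO libraries lay between them. The log2 fold change was 0.05 ± 0.40 (interval -0.96 to 1.06, limma adjusted p = 0.984), of the opposite sign to the difference of the means (1035 FPKM in ECp53KO and 1047 FPKM in Ctrl). It was -0.42 without Ctrl_178 and 0.53 without Ctrl_182. Id3 (chromosome 4, 136143822 to 136145392) had 1045 and 924 FPKM in the ECp53KO libraries and 767 and 1005 FPKM in the controls, with ECp53KO_172 between the controls and ECp53KO_170 above them. Its log2 fold change was 0.16 ± 0.27 (interval -0.54 to 0.86, limma adjusted p = 0.919).

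Ctrl_178 was the lowest of the 4 libraries for each of the 3 ID genes. The 3 genes summed to 2227 and 1893 FPKM in the ECp53KO libraries and 1503 and 2413 FPKM in the controls. Id2 made up 1.97% and 1.99% of that sum in the ECp53KO libraries and 1.52% and 1.15% in the controls. This share is built from the same Id2 values, so its lack of overlap is not a separate result.

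The stretches before the start sites of Id2 and Id3 are shown because both are BMP targets and the groups overlapped for Id3 and not for Id2. The difference between these genes was not tested. Entries of RefSeq's promoter table (GRCm38.p6) were used for 7 members, and none for Acvrl1, Id1 and Smad7. Sequence beyond the 250 bases was not searched. Each line gives the 250 bases before the annotated start, 5′ to 3′ on the gene's strand, with the letters searched for in capitals: GGCGCC, a GC-rich element bound by BMP-activated SMADs, and CAGAC or its reverse complement GTCTG, the SMAD-binding element. The windows are chr12:25096093-25096342 on the minus strand for Id2 and chr4:136143572-136143821 on the plus strand for Id3.
Id2: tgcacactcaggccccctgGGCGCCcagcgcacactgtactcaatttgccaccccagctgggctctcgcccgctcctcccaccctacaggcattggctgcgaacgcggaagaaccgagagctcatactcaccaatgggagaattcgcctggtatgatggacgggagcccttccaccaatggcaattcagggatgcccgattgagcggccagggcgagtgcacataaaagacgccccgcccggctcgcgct
Id3: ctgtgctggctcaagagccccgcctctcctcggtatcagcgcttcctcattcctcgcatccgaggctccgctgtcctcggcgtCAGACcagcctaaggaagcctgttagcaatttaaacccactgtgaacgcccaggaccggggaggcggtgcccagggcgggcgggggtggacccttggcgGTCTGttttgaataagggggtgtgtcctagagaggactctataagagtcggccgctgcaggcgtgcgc
Id2 had 1 GGCGCC and 0 CAGAC, and Id3 had 0 GGCGCC and 2 CAGAC on either strand. GGCGCC reads the same on both strands, and no matches overlapped in these windows. Over 32851 promoters of the same length, 9.59% held GGCGCC and 42.2% held CAGAC. Of the other entries, Bmpr2 and the upstream of the 2 starts of Tgfbr1 held 1 GGCGCC each. Eng held 2 CAGAC, Tgfbr2 and the downstream start of Tgfbr1 held 1 each, and Smad6 held neither motif. A match is a run of letters and not a site of binding.

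Some marker lists of other cells also stood higher in both ECp53KO libraries, as Id2 and Acvrl1 did. The 12 pericyte and smooth muscle markers summed to 188 and 153 FPKM in the ECp53KO libraries and 102 and 121 FPKM in the controls, with 10 of 10 tested members positive. The 12 cardiomyocyte markers summed to 467 and 272 FPKM in the ECp53KO libraries and 264 and 247 FPKM in the controls (9 of 10 positive), with Ttn under 0.1 FPKM in every library. The 8 erythroid markers in the table summed to 457 and 95.7 FPKM in the ECp53KO libraries and 64.5 and 37.4 FPKM in the controls (6 of 6 positive), with Slc4a1 under 0.1 FPKM in every library. The 8 endocardial markers lay the other way, at 56.5 and 65.6 FPKM in the ECp53KO libraries and 76.1 and 91.7 FPKM in the controls, with 0 of 7 tested members positive. So did the 10 fibroblast markers, at 49.9 and 57.4 FPKM in the ECp53KO libraries and 68.3 and 65.0 FPKM in the controls (2 of 8 positive). The 19 immediate early genes can be induced during cell isolation. They summed to 6315 and 7266 FPKM in the ECp53KO libraries and 6671 and 8550 FPKM in the controls. Id1 was also highest in Ctrl_182, but Id2 and Id3 were highest in ECp53KO_170, where this sum was lowest. The part of any of these in the values of the members was not tested.

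In ECp53KO_170 the 3 ID genes, the shortest members, were high, and most of the longer members were low. On the log2(FPKM + 1) scale, this library differed from the mean of the other 3 by 0.23, 0.59 and 0.23 for Id1, Id2 and Id3, whose longest transcripts run from 1160 to 1969 nucleotides. Of the 7 receptors and SMADs, at 2971 to 12899 nucleotides, 5 were lower in it, with differences of -0.53 for Eng, -0.38 for Bmpr2, -0.15 for Tgfbr2, -0.31 for Smad6 and -0.69 for Smad7. Acvrl1 (0.24) and Tgfbr1 (0.17) were higher in it. Among these 7 genes the differences did not follow length. That of Smad7, at 4278 nucleotides, was further below 0 than that of Bmpr2, at 12899 nucleotides. With the length trend of each library removed, the log2 fold changes of Bmpr2, Tgfbr1 and Tgfbr2 were 0.071, 0.058 and 0.067, and that of Id1 was -0.056. Those of Eng, Smad6 and Smad7 stayed negative, at -0.177, -0.175 and -0.020. Those of Acvrl1, Id2 and Id3 were 0.28, 0.62 and 0.065. None passed.

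**Figure D3:**
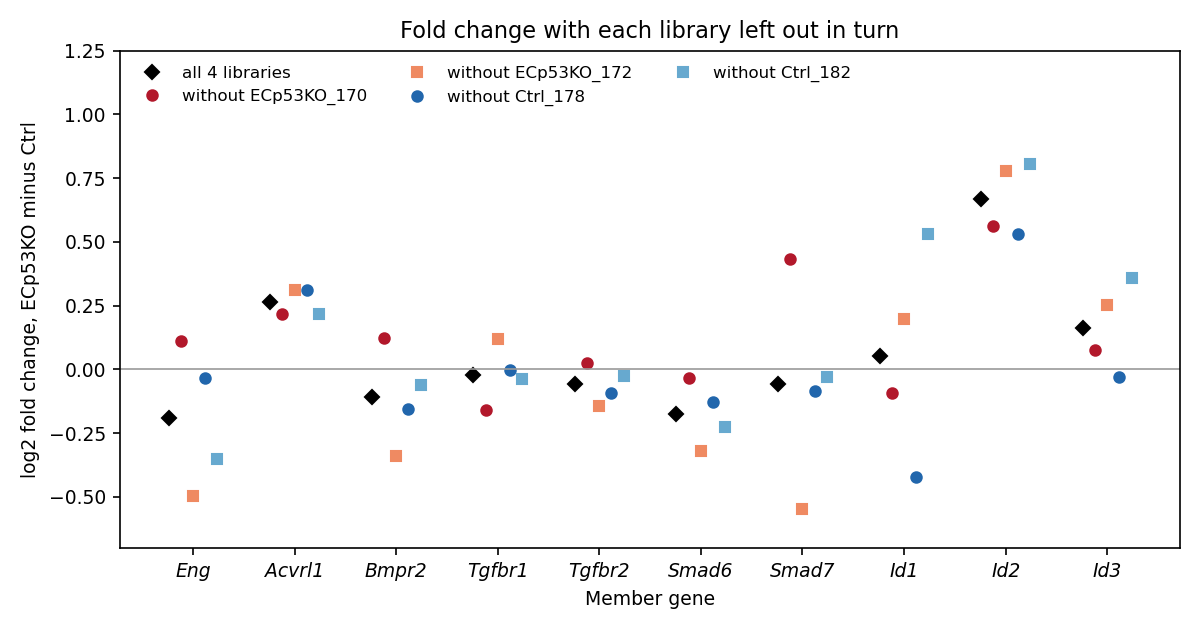
Log2 fold change of each member, ECp53KO minus Ctrl, over all 4 libraries (black) and with each library left out in turn (colours). Acvrl1 stays between 0.22 and 0.31 and Id2 between 0.53 and 0.80, while Smad7 runs from -0.55 to 0.43 and Id1 from -0.42 to 0.53. A gene without overlap between groups, as Acvrl1 and Id2, cannot change sign here. Of all tested genes, 19.1% (higher) and 16.8% (lower) are without overlap.

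Other genes of the same pathways gave no call either. Of 62 listed genes, each with a row in the table, 41 averaged 1 FPKM or more and were tested. By limma 0 passed in either direction, where 0.115% of all tested genes did. At an unadjusted p under 0.05, 1 was higher, where 1.97% of all tested genes were, and 1 was lower, where 2.82% were. Both ECp53KO libraries stood above both controls for 3 genes, where 19.1% of all tested genes did so, and below both for 9, where 16.8% did. Fold changes were negative for 28 of the 41 genes (68.3%, against 48.3% of all tested genes), with a median of -0.15 against 0.01. Without ECp53KO_170 they were negative for 21 of 41, with a median of -0.01. With the length trend removed the count was again 28 and the median -0.05.

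The ligands held both genes with an unadjusted p under 0.05. Bmp4, a BMP ligand, had 5.32 and 5.69 FPKM in the ECp53KO libraries and 8.38 and 7.95 FPKM in the controls, below both controls in both libraries (log2 fold change -0.49 ± 0.16, limma adjusted p = 0.864, unadjusted p = 0.0276). Tgfb2, one of the TGF-beta ligands, had 4.12 and 3.68 FPKM in the ECp53KO libraries and 2.16 and 2.67 FPKM in the controls, above both controls (log2 fold change 0.53 ± 0.20, limma adjusted p = 0.864, unadjusted p = 0.0478). Bmp6, the most abundant ligand of the list and known from liver endothelium as a regulator of iron uptake, had 64.4 and 93.7 FPKM in the ECp53KO libraries and 74.2 and 120 FPKM in the controls, with overlap between the groups. The unadjusted limma p of Tgfb2 was above 0.05 whichever library was left out (0.0619 to 0.156). That of Bmp4 was 0.0417 without ECp53KO_172 and 0.0648 to 0.129 without each of the other libraries.

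No other receptor and no SMAD that carries the signal passed. Acvr1, a type I receptor, had 18.7 and 18.3 FPKM in the ECp53KO libraries and 15.0 and 20.6 FPKM in the controls. Acvr2a, a type II receptor, had 15.2 and 14.5 FPKM in the ECp53KO libraries and 12.9 and 13.5 FPKM in the controls, and the co-receptor Tgfbr3 had 8.71 and 8.87 FPKM in the ECp53KO libraries and 9.55 and 9.94 FPKM in the controls. The groups did not overlap for Acvr2a and Tgfbr3 (log2 fold changes of 0.16 ± 0.15 and -0.13 ± 0.15, limma adjusted p = 0.872 and 0.887). The BMP-activated Smad1 averaged 30.9 ± 3.12 FPKM in the ECp53KO libraries and 30.6 ± 4.48 FPKM in the controls, and Smad5 27.0 ± 3.48 FPKM in ECp53KO and 26.5 ± 0.0282 FPKM in Ctrl (SD, n = 2 each). The common partner Smad4 averaged 33.5 ± 5.34 FPKM in the ECp53KO libraries and 32.3 ± 2.54 FPKM in the controls (SD, n = 2 each).

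**Figure D4:**
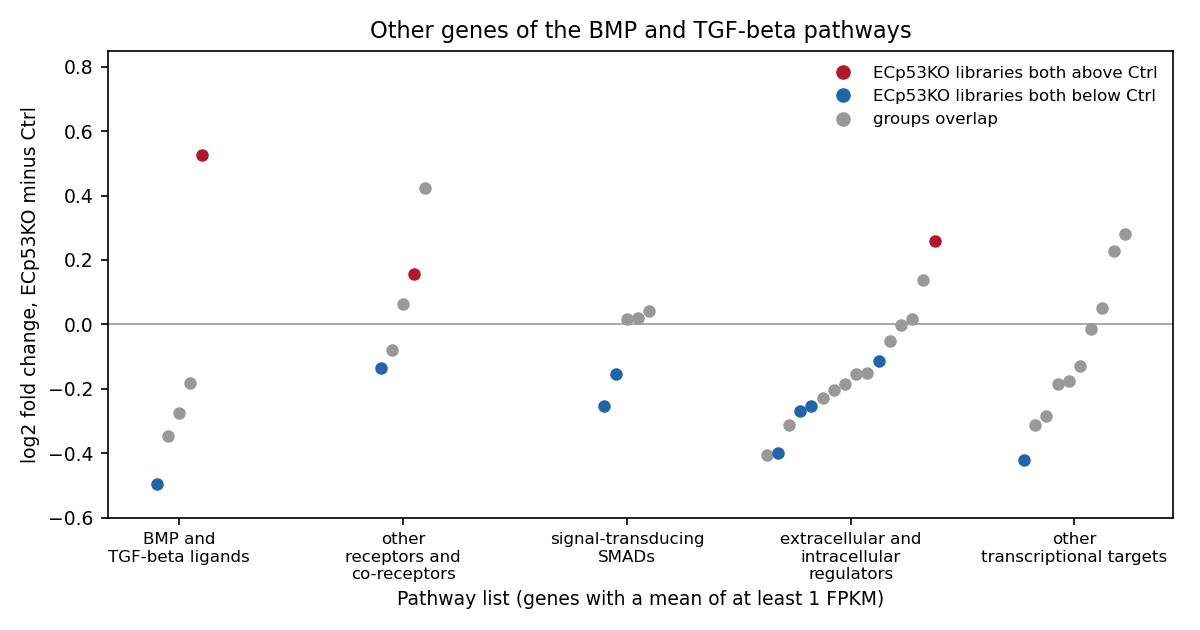
Log2 fold change, ECp53KO minus Ctrl, of the 41 tested pathway genes outside the members, by list. Red points are genes whose ECp53KO libraries both lie above the controls (3 genes), blue points those that both lie below (9 genes), and grey points overlap.

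No regulator or further target passed either. Ltbp4, which encodes a binding protein of latent TGF-beta, had 389 and 522 FPKM in the ECp53KO libraries and 689.5 and 517 FPKM in the controls. The groups overlapped at ECp53KO_172, and the log2 fold change was -0.41 ± 0.28 (limma adjusted p = 0.864). Fkbp1a, which encodes an immunophilin that binds type I receptors, averaged 325 ± 57.6 FPKM in the ECp53KO libraries and 325 ± 51.4 FPKM in the controls, and Mgp, which encodes a matrix protein that binds BMPs, averaged 192 ± 27.8 FPKM in ECp53KO and 225 ± 29.6 FPKM in Ctrl (SD, n = 2 each). Of the targets, Sox18, an endothelial transcription factor, had 186 and 323 FPKM in the ECp53KO libraries and 273 and 264 FPKM in the controls. Cyr61, a matricellular gene, had 232 and 175 FPKM in the ECp53KO libraries and 168 and 175.5 FPKM in the controls, and the transcription factor Gata2 had 50.7 and 81.9 FPKM in the ECp53KO libraries and 74.1 and 87.0 FPKM in the controls. The groups overlapped for each of these 6 genes.

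Genes with the most similar course over the 4 libraries were sought for each role, by the distance between log2(FPKM + 1) values centred on their mean. With only 4 libraries such likeness is a description. The mean of a role did not match the course of each of its members. Smad6 was highest in Ctrl_178 and Id1 in Ctrl_182, and in ECp53KO_170 Eng was at its lowest and Acvrl1 at its highest. Nearest to the mean of the 5 receptors were Mlst8 (distance 0.0146), 9430020K01Rik (0.0148) and Tspan5 (0.0223). Nearest to the 2 inhibitory SMADs were Ptar1 (0.0264), Zc3h3 (0.0273) and Pdzd2 (0.0324), each lowest in ECp53KO_170 and highest in ECp53KO_172. Nearest to the 3 ID genes were Galnt15 (0.0447), Usp46 (0.0527) and Tm2d1 (0.0581), each lowest in Ctrl_178 and highest in ECp53KO_170.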

How the data were processed

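Members, lists and tests were chosen with earlier results of these data known. The authors deposited 1 table of FPKM values, whose 4 columns match the libraries by title. Per the labels' protocols, polyadenylated RNA was made into unstranded TruSeq libraries and read in pairs. TopHat2 2.1.0, Cufflinks 2.2.1, Trimmomatic 0.36, FastQC 0.11.5 and bcl2fastq 2.17 are listed, with mm10 and without roles, in the submitters' processing notes. The sources used here do not name the annotation.

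Count models were not used on FPKM. Values were taken as log2(FPKM + 1), kept where a gene averaged 1 FPKM or more, and tested two-sided with an intensity trend in limma 3.58.1 (R 4.3.3), after a check on simulated data. The fit had 2 residual degrees of freedom plus 3.15 from the shared variance. Permuting 2 against 2 libraries exactly gives no p under 0.333 and was not done. For depth, the commonest FPKM times length among low values of 1063 genes with a single transcript in GENCODE M21 was assumed to be 1 fragment. Positions are RefSeq's for GRCm38.p6, the assembly of mm10. Named genes are the members, Trp53, pathway genes with an unadjusted p under 0.05, where a list had fewer than 3 of those its most abundant genes up to 3 in all, and the 3 nearest in course to each role. Smad9, Id4, Tek, Kdr, Cdh5, Esam, Cldn5, Bmp2, Bmpr1a, Gdf2 and Bmp10, in the closing section, were named outside this rule. Pseudocount, filter, scaling, small RNA loci, transcript length, the variance model, Xist and each library were varied.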

Additional observations from a re-analysis of the deposited data

How the results depend on the processing

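No member and none of the other pathway genes passed under any of the 18 alternatives. Acvrl1 (0.15 to 0.31), Id2 (0.53 to 0.80) and Smad6 (-0.32 to -0.033) kept the sign of their log2 fold change in each. The 7 other members changed sign in at least 1, and the cause was not tested. For Acvrl1 and Id2 much of this was fixed in advance. Their groups did not overlap, so leaving out a library could not reverse the sign. Settings that change only the set of tested genes, the variance model or the Xist covariate leave every fold change as it is. Without ECp53KO_170, with or without small RNA loci, the log2 fold change was 0.11 for Eng, 0.12 for Bmpr2, 0.024 for Tgfbr2, 0.43 for Smad7 and -0.092 for Id1. Without ECp53KO_172 it was 0.12 for Tgfbr1, and without Ctrl_178 it was -0.42 for Id1 and -0.032 for Id3. Over the fits that left out 1 library, Eng ran from -0.50 to 0.11, Bmpr2 from -0.34 to 0.12, Tgfbr1 from -0.16 to 0.12, Tgfbr2 from -0.14 to 0.024, Smad7 from -0.55 to 0.43, Id1 from -0.42 to 0.53 and Id3 from -0.032 to 0.36. With the length trend removed it was 0.071 for Bmpr2, 0.058 for Tgfbr1, 0.067 for Tgfbr2 and -0.056 for Id1, and with small RNA loci left out as well, an alternative chosen after seeing the data, 0.071, 0.058, 0.067 and -0.057. Rescaling to TPM moved the median of all genes to -0.097, against 0.012, and gave Id1 -0.063. Median scaling gave Tgfbr1 0.0080. Fold changes of the other pathway genes were negative for 39 of 47 after rescaling to TPM and for 26 of 41 after median scaling, against 28 of 41. Of all tested genes, 64.7% were negative after rescaling to TPM and 43.9% after median scaling, against 48.3%. In fits that leave a group with 1 library, that library is assumed to vary like the other group.

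Over all tested genes, 3 were called higher and 10 lower. With a pseudocount of 0.1, no filter and robust shrinkage, 5, 1 and 5 were higher. Without small RNA loci or with the length trend removed, and with both, 4 were lower. The fits that left out 1 library called 1 to 21 higher and 12 to 58 lower, and with small RNA loci also left out 5 to 12 higher and 4 to 18 lower. No pairing by library number was possible because the ECp53KO and Ctrl libraries carry different numbers. Xist above 1 FPKM split the libraries within each group evenly. With it as a covariate the fold changes of the members were unchanged, which the even split fixes in advance for any gene. In that fit Trp53 passed (limma adjusted p = 0.0208) and no member did (Id2, limma adjusted p = 0.903).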

Other observations

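Some pathway genes lay below the filter of 1 FPKM, 21 of the 62 listed, and 5 of them were listed at 0 in every library. The genes named here were chosen after their values were seen. Among the ligands, the circulating Gdf2 (BMP9) was listed at 0 in every library but ECp53KO_172 (0.0336 FPKM), and Bmp10 at 0 in all 4. Bmp2 stood at 0.315 and 1.08 FPKM in the ECp53KO libraries, against 1.24 and 0.982 FPKM in the controls, and the type I receptor gene Bmpr1a at 0.740 and 0.532 FPKM in the ECp53KO libraries, against 0.900 and 0.665 FPKM in the controls, with overlap for both. Smad9, the least abundant of the BMP-activated SMAD genes, averaged 0.987 FPKM over the libraries and stood at 1.26 and 1.39 FPKM in the ECp53KO libraries, against 0.622 and 0.678 FPKM in the controls. Its mean was 1.32 ± 0.0944 FPKM in ECp53KO and 0.650 ± 0.0392 FPKM in Ctrl (SD, n = 2 each). In the unfiltered fit over 16809 genes its log2 fold change was 0.49 ± 0.13 (limma adjusted p = 0.853, unadjusted p = 0.0166), so it did not pass. Id4, of the same family as Id2, lay below both controls, at 0.838 and 0.450 FPKM in the ECp53KO libraries and 1.11 and 0.935 FPKM in the controls. Of the 12 pan-endothelial markers, 4 lay above both controls in both ECp53KO libraries, as Acvrl1 did, and 3 lay below both, where 19.1% and 16.8% of all tested genes did so. Over the 12 markers 6 fold changes were positive, with a median log2 fold change of 0.026. The 3 that lay below both controls are Cdh5, Esam and Cldn5, and the receptor genes Tek and Kdr are among the 4. Tek had 206 and 181.5 FPKM in the ECp53KO libraries and 148 and 149.6 FPKM in the controls, and Kdr had 631 and 608 FPKM in the ECp53KO libraries and 573 and 435 FPKM in the controls.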
